A study of Sus scrofa with 24 samples.

Results

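The oxyntic mucosa, the acid-secreting lining of the stomach, was compared between 6 piglets with a complex microbiota association and 6 with a simple one, all fed the diet with medium chain triglycerides (CA MCT and SA MCT). The 12 piglets were chosen by their sample titles from 24, with 1 Affymetrix Porcine Gene 1.1 ST array each, and 10882 of 27558 transcript clusters were compared, 1 per gene symbol. All piglets were (Great York × Pietrain) × 'Dalland' crosses, delivered by caesarean section and given pasteurized sow colostrum and a starter of Lactobacillus amylovorus, Clostridium glycolicum and Parabacteroides spp. Faeces of a sow, diluted, were then fed to the CA piglets, where the SA piglets got a placebo, and all were sampled at 3 weeks of age. In the MCT diet, which both groups ate, coconut oil took the place of most of the palm and soy oil, so that their fat was the same. The 12 other piglets, 6 CA CON and 6 SA CON, had the same associations on the diet without coconut oil. CA and SA piglets lived in different rooms, as the labels state, and room and microbiota cannot be told apart. Litters were balanced over the groups, but the labels used here give no litter, sex, pen or array strip of a piglet, and piglets were taken as independent.

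The oxyntic glands hold parietal cells, which secrete acid through the proton pump, chief cells, which secrete pepsinogen, and endocrine cells that release ghrelin and histamine, under a surface of mucous cells. Lactobacilli and other bacteria colonise the stomach of the pig from birth, and mucosal cells answer microbial products with interferon, which induces antiviral proteins, antigen presentation and chemokines that attract lymphocytes. Medium chain fatty acids are freed from their triglycerides in the stomach itself and act against bacteria. The mucosa was analysed as a whole, so fewer cells of a type and less RNA per cell cannot be told apart.

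No gene passed the test between CA MCT and SA MCT. Log2 values of the deposited intensities were compared with limma over all 24 arrays, and the lowest of 10882 adjusted p-values was 0.9998 (called at under 0.05, 0% of genes). Differences are CA minus SA on the log2 scale, given ± SE. At an unadjusted p under 0.05, 141 genes were higher in CA MCT (1.3% of genes) and 148 were lower (1.36%). Together they were 2.66% of genes, where chance alone gives about 5%. The difference was above 0.5 in size on the log2 scale in 30 genes and above 1 in 1 gene, CHAC1. Over all genes the median difference was -0.0046, and 48.1% of genes were higher in CA MCT. Dim and bright genes did not split alike: of the 4353 dimmest genes (40% of all, below a log2 intensity of 4.47) 59.9% were higher in CA MCT (median 0.03), and of the 6529 others 40.2% (median -0.02). Without CA MCT pig 10 the shares were 54.1% and 48.3%, and on the CON diet 68.5% and 37.4% (47.2% and 56.6% without CA CON pig 4). Counts of list members are read beside these shares.

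**Figure D1:**
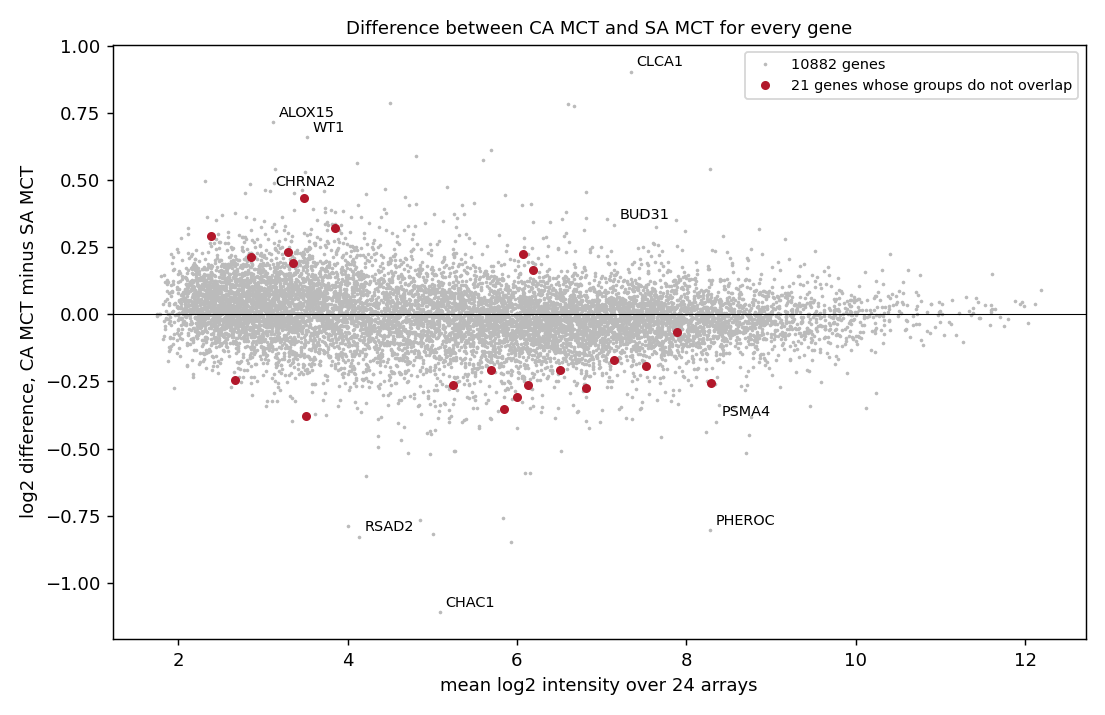
Log2 difference between CA MCT and SA MCT (y axis) against the mean log2 intensity over 24 arrays (x axis), 1 point per gene. The 21 genes whose groups did not overlap are in red. CHAC1 lay lowest (-1.11) and CLCA1 highest (0.90), and none of the points passed the test.

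Of the 12 arrays 2 stood apart. The median correlation with the other 23 arrays was 0.975 for CA MCT pig 10 and 0.981 for SA MCT pig 22, against 0.9896 to 0.9918 for the 10 others. It was 0.946 for CA CON pig 4, which enters the CON values and the shared spread, and a CON value that it moved by more than 1.5 times is also given without it. In pig 10, 33 genes lay more than 1 log2 unit above each of the 11 other MCT arrays, and 12 did in pig 22, against 0 to 3 in each other piglet. The genes of pig 10 were led by ALOX15, a lipoxygenase (6.34 against at most 3.32 in the others), WT1, a transcription factor (6.40 against at most 3.52), and LRP2, an endocytic receptor (5.71 against at most 3.18). Those of pig 22 included 7 of the interferon effectors described below. These genes were picked after their values were seen. Of the medians of the 27 gene lists described here, only those of the proteasome and the fibroblast genes were moved by no more than 1.5 times when any 1 of the 12 MCT piglets was left out. For the 25 others the lowest and highest such medians are given.

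The tissue carried the markers of the oxyntic gland at high levels in both groups. ATP4A and ATP4B, the subunits of the proton pump, had mean log2 intensities of 11.80 and 11.38, PGA5, a pepsinogen, 12.04, and GKN1 and GKN2, gastrokines of surface mucous cells, 11.45 and 12.11. The differences between CA MCT and SA MCT were small with narrow intervals: -0.02 for ATP4A (95% interval -0.14 to 0.11), 0.0039 for ATP4B (-0.14 to 0.14), -0.03 for PGA5 (-0.18 to 0.12) and 0.04 for GKN2 (-0.10 to 0.18). Markers of 3 other epithelial tissues were measured in part and mostly at low signal. Of squamous epithelium genes 6 of the 7 measured (20 listed) were among the dimmest. For intestinal epithelium 13 of 22 (27 listed) were, and for pancreas 5 of 9 (21 listed). Their median differences were 0.01, 0.01 and 0.03. Smooth muscle genes were brighter: 1 of 9 measured (14 listed) was among the dimmest, with a median difference of -0.02. The mean of that list, centred on the 12 arrays, varied between piglets. It ranged from -0.28 to 0.58 (pig 7) in CA MCT and from -0.29 to 0.30 in SA MCT.

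The gene nearest to the threshold was PSMA4, a subunit of the 20S core of the proteasome, the complex that degrades ubiquitinated proteins. PSMA4 ranged from 8.00 to 8.27 (median 8.22) in CA MCT and from 8.19 to 8.74 (median 8.65) in SA MCT. The values overlapped through 1 piglet, SA MCT pig 22 (8.19): the 5 other SA MCT piglets were above all CA MCT piglets. The difference was -0.40 ± 0.09, or 0.76-fold, with an unadjusted p of 0.000151 and an adjusted p of 0.9998. Without pig 22 it was -0.48 and passed limma's test (adjusted p = 0.0346), as it did with array weights (-0.43, adjusted p = 0.0243). Without pigs 10 and 22 the adjusted p was 0.120. On CON the difference was -0.06, and the difference between diets was -0.34 ± 0.13 with an unadjusted p of 0.0120.

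The rest of the proteasome differed little. Of 14 constitutive subunits measured out of 32 listed, 13 were lower in CA MCT, with a median of -0.07, and PSMA4 was the only one at an unadjusted p under 0.05. All 14 were brighter genes, of which 40.2% were higher over the whole array. PSMB6, a catalytic subunit, was at -0.13 ± 0.08, PSMB5, the chymotrypsin-like one, at -0.13 ± 0.10, and PSMC3, an ATPase of the regulatory cap, at -0.14 ± 0.11. On CON 13 of 14 were lower as well (median -0.07, -0.12 without pig 4), in other piglets. PSMB9 of the immunoproteasome, which interferon induces, is counted with antigen processing.

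**Figure D2:**
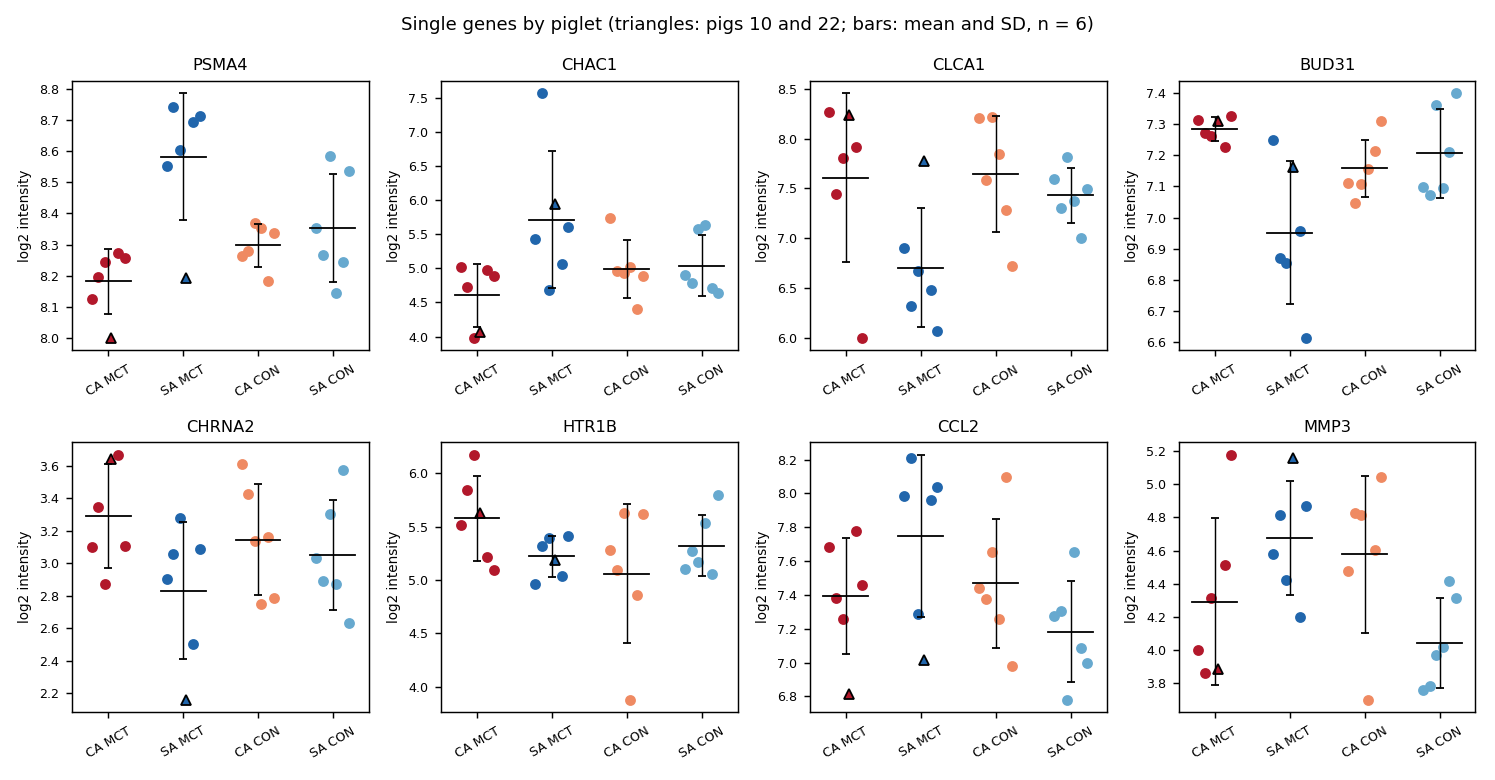
Log2 intensity (y axis) of 8 genes in each piglet by group (x axis, 6 piglets each), with group means and SD. Triangles mark CA MCT pig 10 and SA MCT pig 22. For PSMA4, 5 of 6 SA MCT piglets lie between 8.55 and 8.74 and all CA MCT piglets at 8.27 or below.

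Of the 27 lists described, the largest median difference was that of the interferon effectors, antiviral proteins that type I interferon induces. Of 40 listed genes 20 were measured, and all 20 were lower in CA MCT, with a median of -0.34 (-0.49 without pig 24 to -0.12 without pig 22), although CXCL10 was at -0.0098 and turned to 0.011 with repeated quantile normalization. 1 of them was at an unadjusted p under 0.05. RSAD2, known as viperin, ranged from 2.94 to 4.44 (median 3.68) in CA MCT and from 3.08 to 6.53 (median 4.39) in SA MCT, a difference of -0.83 ± 0.40 with unadjusted p = 0.0466. CMPK2, its neighbour in function as a mitochondrial nucleotide kinase, ranged from 4.22 to 5.30 (median 4.72) in CA MCT and from 4.56 to 6.46 (median 4.94) in SA MCT, a difference of -0.45 ± 0.25. XAF1, a pro-apoptotic factor, ranged from 4.99 to 5.43 (median 5.11) in CA MCT and from 4.69 to 7.09 (median 5.42) in SA MCT (-0.40 ± 0.24). ZBP1, a sensor of nucleic acids, ranged from 3.60 to 4.17 (median 3.78) in CA MCT and from 3.72 to 4.50 (median 3.95) in SA MCT (-0.23 ± 0.13). In each of the 20 genes the groups overlapped, and in these 4 the highest SA MCT value lay above the CA MCT range.

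The size of this difference rested on SA MCT pig 22. The mean of the 20 genes, each centred on the 12 arrays, was 1.15 in pig 22, between -0.51 (pig 24) and 0.30 (pig 19) in the 5 other SA MCT piglets, and between -0.54 and 0.21 in the CA MCT piglets. In 17 of 20 genes pig 22 had the highest value of the 12 piglets, and in 8 of 20 pig 24, of the same group, had the lowest. RSAD2 was 6.53 in pig 22 and 3.08 in pig 24, XAF1 7.09 and 4.69, and IFIT1, which binds viral RNA, 6.77 and 3.99. The lowest list mean of all was that of CA MCT pig 11. Without pig 22 the 20 genes were still lower in CA MCT, with a median of -0.12, and without pigs 10 and 22, 18 were, with a median of -0.08.

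On the CON diet the same list lay the other way. The median was 0.24, with 16 of 20 genes higher in CA, in piglets that the MCT comparison does not use. CA CON pig 4 had the highest list mean of the CA CON piglets (0.51 over 24 arrays), and without it the CON median was 0.18, with 17 of 20 higher. Of the 4 genes with ranges above, CMPK2 (0.22) and XAF1 (0.31) were then higher in CA on CON. RSAD2 (-0.15) and ZBP1 (-0.06) were then lower, as on MCT. The difference between the diets had a median of -0.64 over the list, and 2 of 20 genes were at an unadjusted p under 0.05 for it, beside 2.53% of all genes. They were XAF1 (-0.71 ± 0.34, unadjusted p = 0.0453) and OAS1, a 2'-5'-oligoadenylate synthetase (-0.76 ± 0.35, unadjusted p = 0.0388), and neither passed after adjustment. Without pig 4 XAF1 was at -0.71 ± 0.35 (unadjusted p = 0.0544) and OAS1 at -0.50 ± 0.26 (unadjusted p = 0.0728).

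**Figure D3:**
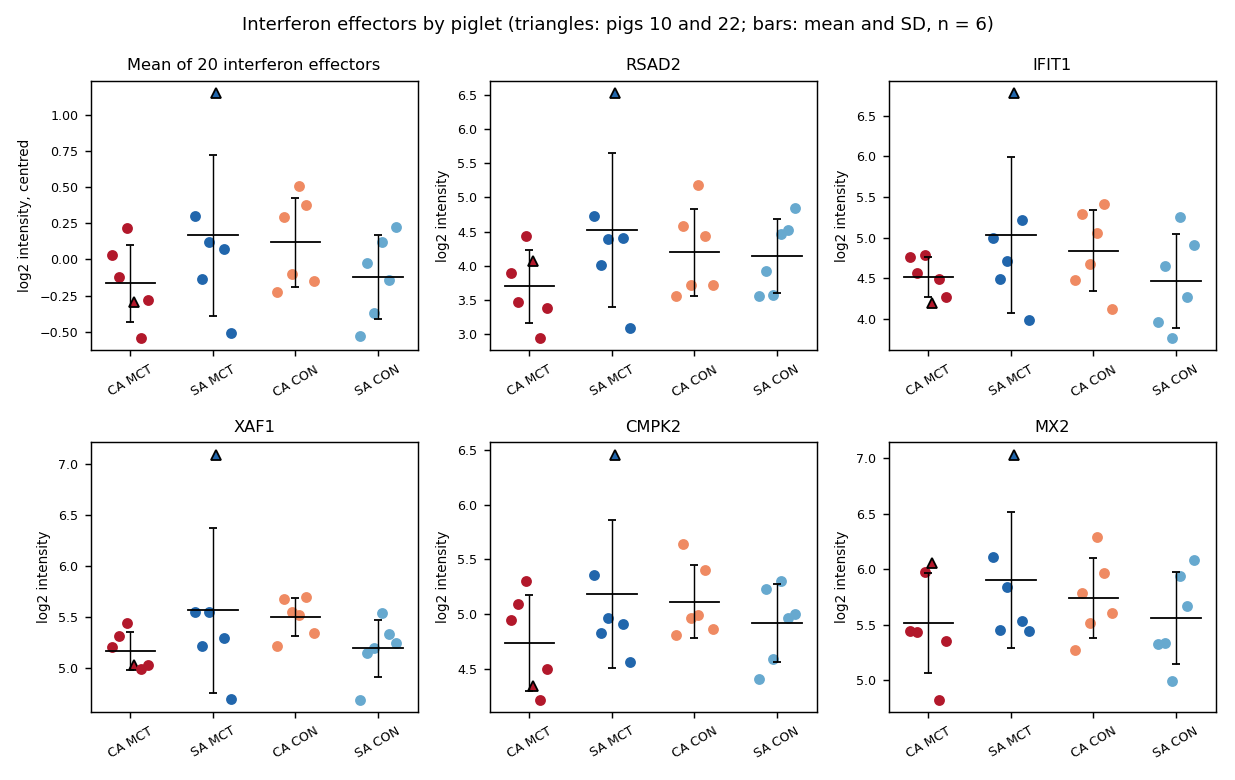
Mean of the 20 interferon effectors (centred log2 intensity over 24 arrays) and 5 of its genes (log2 intensity) on the y axes, by group on the x axes, 1 point per piglet with mean and SD (n = 6). SA MCT pig 22, the blue triangle, is the highest point in each panel, and the mean of the list in the 5 other SA MCT piglets and in the CA MCT piglets covers overlapping ranges.

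The upstream genes of the interferon response differed less. Of 20 sensors and regulators 14 were lower in CA MCT, with a median of -0.03 (-0.05 without pig 23 to -0.0041 without pig 22), and 0 were at an unadjusted p under 0.05. IRF9, the DNA-binding part of the complex that interferon receptors activate, ranged from 7.29 to 8.20 (median 7.75) in CA MCT and from 7.66 to 8.30 (median 8.14) in SA MCT (-0.28 ± 0.15). IFIH1, a sensor of double-stranded RNA known as MDA5, ranged from 5.56 to 6.20 (median 5.73) in CA MCT and from 5.47 to 7.01 (median 5.99) in SA MCT (-0.28 ± 0.20), and IRF2, an antagonist of IRF1, differed by -0.12 ± 0.09. The groups overlapped in both, and the IFIH1 values of the CA MCT piglets lay within the SA MCT range. DHX58, a relative of IFIH1 known as LGP2, differed by -0.25 ± 0.28.

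Genes of antigen presentation were mostly lower in CA MCT. Of the 9 class I and 10 class II genes below, 3 and 3 were among the dimmest. Over the whole array 40.2% of the brighter genes were higher. Of 9 genes of the MHC class I pathway and its guanylate binding proteins 7 were lower (median -0.09, -0.13 without pig 9 to -0.04 without pig 22), and of 10 genes of MHC class II 9 were (median -0.08, -0.13 without pig 9 to -0.06 without pig 10). PSMB9, the immunoproteasome subunit, ranged from 4.73 to 5.69 (median 5.15) in CA MCT and from 4.87 to 5.94 (median 5.53) in SA MCT, a difference of -0.34 ± 0.16 with unadjusted p = 0.0416. SLA-DOB, which tempers the loading of class II molecules, ranged from 4.01 to 4.47 (median 4.28) in CA MCT and from 4.18 to 4.97 (median 4.76) in SA MCT, a difference of -0.39 ± 0.17 with unadjusted p = 0.0280. SLA-DQB1, SLA-DOA and SLA-DQA1 differed by -0.23, -0.36 and -0.17, B2M, the light chain of class I molecules, by -0.15, PSME2, an activator of the proteasome, by -0.11, and TAPBP, tapasin, by -0.09. For SLA-DOB 4 of 6 SA MCT piglets, pig 22 among them, were above all CA MCT piglets. For PSMB9 the groups overlapped more, with SA MCT pig 22 highest (5.94) and CA MCT pig 10 lowest (4.73). PSMB9 and SLA-DOB were the 2 of these 19 genes at an unadjusted p under 0.05, and neither passed after adjustment. On CON the class I list lay higher in CA (median 0.14, 8 of 9 genes, and 0.08 without pig 4) and the class II list near 0 (-0.0099, 5 of 10 genes higher, and 0.06 with 8 higher without pig 4).

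Markers of T cells and cytotoxic cells were more often lower in CA MCT, by amounts that moved with single piglets. Of 19 T cell genes 15 were lower (median -0.12) and of 17 genes of cytotoxic cells 12 (median -0.11), none at an unadjusted p under 0.05. Signal was low: 11 of the 19 and 13 of the 17 were among the dimmest genes, of which 59.9% were higher. Of 7 B cell genes 3 were lower, 1 of them at an unadjusted p under 0.05. The median of the 7 was 0.03 (-0.02 without pig 22 to 0.08 without pig 23). CD3E, part of the T cell receptor complex, ranged from 5.05 to 6.08 (median 5.62) in CA MCT and from 5.29 to 6.36 (median 5.93) in SA MCT (-0.27 ± 0.20), and LCK, CD4 and CD3G, of the same signalling, differed by -0.15, -0.18 and -0.24. NKG7, a granule protein of killer cells, ranged from 5.96 to 7.06 (median 6.57) in CA MCT and from 6.62 to 7.32 (median 6.92) in SA MCT (-0.37 ± 0.19), and GZMB, granzyme B, NCR3, a natural killer receptor, and TBX21, the transcription factor T-bet, differed by -0.20, -0.13 and -0.17. In CD3E and NKG7 the lowest CA MCT values were below the SA MCT range, and the groups overlapped. The T cell median went from -0.19 without pig 9 to -0.02 without pig 10, and 11 of 19 genes were lower without pig 10, whose list mean of -0.35 was the lowest of the 12. The cytotoxic median went from -0.13 without pig 9 to -0.04 without pig 22, whose mean of 0.23 was the highest. Without pigs 10 and 22 the T cell median was -0.02 and the cytotoxic median -0.0081. On CON both lists were higher in CA (0.09 and 0.07).

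Of the 25 chemokines measured 16 were lower and 9 higher in CA MCT, with a median of -0.02 (-0.05 without pig 21 to 0.02 without pig 10) and 0 at an unadjusted p under 0.05. CCL2, which draws monocytes, ranged from 6.81 to 7.78 (median 7.42) in CA MCT and from 7.01 to 8.21 (median 7.98) in SA MCT, a difference of -0.35 ± 0.20 (unadjusted p = 0.0940). 4 of 6 SA MCT piglets were above all CA MCT piglets, and pig 22 was not among them. XCL1, CCL28 and CCL21 differed by -0.26 ± 0.14, -0.32 ± 0.23 and -0.34 ± 0.24. CXCL10 and CXCL11, the interferon-induced chemokines that attract activated T cells, did not follow the interferon effectors in size: CXCL10 ranged from 4.87 to 6.39 (median 5.40) in CA MCT and from 5.11 to 6.27 (median 5.45) in SA MCT (-0.0098 ± 0.30) and CXCL11 from 3.24 to 4.52 (median 3.90) in CA MCT and from 3.27 to 4.51 (median 3.92) in SA MCT (-0.06 ± 0.23). The groups covered nearly the same range in both. On CON they were at 0.77 and 0.66.

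The highest difference of any gene was that of CLCA1, a secreted protein of mucous and goblet cells that regulates chloride channels and mucus. CLCA1 ranged from 6.00 to 8.26 (median 7.86) in CA MCT and from 6.07 to 7.78 (median 6.58) in SA MCT, so that the groups overlapped widely. 5 of 6 CA MCT piglets were at 7.45 or above, where 1 SA MCT piglet, pig 22 (7.78), also lay, and CA MCT pig 12 had the lowest value of all (6.00). The difference was 0.90 ± 0.32, or 1.87-fold, with unadjusted p = 0.00922. It was 1.12 without pig 22 and 1.22 without pig 12. On CON it was 0.21.

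The surface mucous cell genes, CLCA1 among them, were higher in 7 of 9, with a median of 0.03 (0.01 without pig 20 to 0.09 without pig 22). CLCA2, a relative of CLCA1, ranged from 4.94 to 5.72 (median 5.27) in CA MCT and from 4.61 to 5.41 (median 4.84) in SA MCT (0.35 ± 0.17, unadjusted p = 0.0503), with an overlap between the groups. GKN1 and GKN2 differed by 0.05 and 0.04, and MUC13, a membrane mucin, by -0.15 ± 0.33. Among 33 anion channels and transporters 19 were higher (median 0.02, 0.00081 without pig 9 to 0.04 without pig 12), and CLCA1 was the only one at an unadjusted p under 0.05. GLRB, the beta subunit of the glycine receptor, differed by 0.15 ± 0.08, and BEST4, a bestrophin channel, by 0.15 ± 0.12.

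Receptors of neurotransmitters were more often higher in CA MCT, at low signal. Of 38 measured genes 25 were higher (median 0.07, 0.05 without pig 22 to 0.08 without pig 23), and 33 of the 38 were among the dimmest genes, of which 59.9% were higher. 3 were at an unadjusted p under 0.05. ADRB1, the beta-1 adrenergic receptor, ranged from 3.96 to 4.25 (median 4.13) in CA MCT and from 3.63 to 4.09 (median 3.88) in SA MCT (0.26 ± 0.10, unadjusted p = 0.0125). CHRNA2, a nicotinic acetylcholine receptor subunit, ranged from 2.87 to 3.67 (median 3.23) in CA MCT and from 2.16 to 3.28 (median 2.98) in SA MCT (0.46 ± 0.19, unadjusted p = 0.0247). ADRA1B, an alpha-1 adrenergic receptor, ranged from 3.14 to 3.75 (median 3.32) in CA MCT and from 2.99 to 3.28 (median 3.17) in SA MCT (0.26 ± 0.11, unadjusted p = 0.0320). The groups overlapped in all 3, and the lowest values were from SA MCT piglets. CHRNA2 was lowest in pig 22 (2.16) and high in pig 10 (3.64), and without both the difference was 0.25. HTR1B, a serotonin receptor, ranged from 5.10 to 6.17 (median 5.57) in CA MCT and from 4.97 to 5.41 (median 5.25) in SA MCT, a difference of 0.36 ± 0.22 with unadjusted p = 0.122, with 4 of 6 CA MCT piglets above all SA MCT piglets. On CON it was at -0.26 (-0.02 without pig 4). CHRNB4, another nicotinic subunit, differed by 0.18. Of 35 receptors of gut peptides and nutrients 21 were higher (median 0.03, -0.02 without pig 22 to 0.06 without pig 20), none at an unadjusted p under 0.05. FFAR2, a receptor of short chain fatty acids, ranged from 3.26 to 3.67 (median 3.45) in CA MCT and from 2.89 to 3.63 (median 3.17) in SA MCT (0.24 ± 0.12), TACR2, a tachykinin receptor, differed by 0.16, NPY2R, a receptor of peptide YY, by 0.18, and F2R, a thrombin receptor, by 0.12. Without the dimmest 40% of genes the neurotransmitter receptors that were left had a median of -0.04.

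The fibroblast genes were mostly higher in CA MCT. Of 15 genes 14 were higher in CA MCT, with a median of 0.16, where 40.2% of the brighter genes were higher, and 14 of the 15 were brighter genes. FN1, fibronectin, ranged from 10.38 to 11.05 (median 10.49) in CA MCT and from 10.27 to 10.43 (median 10.34) in SA MCT, a difference of 0.22 ± 0.11 with unadjusted p = 0.0499, the only member at an unadjusted p under 0.05. DCN, the proteoglycan decorin, ranged from 10.52 to 10.91 (median 10.72) in CA MCT and from 10.49 to 10.57 (median 10.56) in SA MCT (0.16 ± 0.08). COL6A3, a chain of collagen VI, ranged from 9.14 to 9.64 (median 9.23) in CA MCT and from 8.93 to 9.22 (median 9.12) in SA MCT (0.21 ± 0.11). COL1A2, a chain of collagen I, ranged from 9.25 to 10.11 (median 9.65) in CA MCT and from 9.26 to 9.70 (median 9.40) in SA MCT (0.23 ± 0.13). For DCN 5 of 6 CA MCT piglets were above all SA MCT piglets. FN1 was high in pig 10 (11.05), and without it the difference was 0.13. The mean of the list was between -0.07 and 0.21 in CA MCT and between -0.17 and -0.0073 in SA MCT, so that the groups overlapped. CA MCT pig 7 had the highest mean of this list (0.21) and also of the smooth muscle list (0.58). Without pig 7 the fibroblast median was 0.12. Without pigs 10 and 22 the median was 0.13, and on CON, in other piglets, it was 0.11 with 13 of 15 higher (0.16 without pig 4).

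Matrix remodelling gave 14 of 26 genes higher and a median of 0.01 (-0.02 without pig 21 to 0.07 without pig 20). MMP14, a membrane-bound collagenase, ranged from 8.32 to 8.87 (median 8.56) in CA MCT and from 7.96 to 8.74 (median 8.32) in SA MCT (0.23 ± 0.12). MMP7, matrilysin, ranged from 2.85 to 3.63 (median 3.16) in CA MCT and from 2.83 to 3.01 (median 2.90) in SA MCT (0.28 ± 0.16), and MMP2, a gelatinase, and TGFBI, a matrix protein that TGF-beta induces, differed by 0.15 and 0.17. MMP3, stromelysin, was on the other side, from 3.86 to 5.18 (median 4.16) in CA MCT and from 4.20 to 5.16 (median 4.69) in SA MCT, a difference of -0.38 ± 0.22 with unadjusted p = 0.0914. In all 3 metalloproteinases the groups overlapped. On CON MMP3 was at 0.53, and the difference between the diets was -0.92 ± 0.31 with an unadjusted p of 0.00640.

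**Figure D4:**
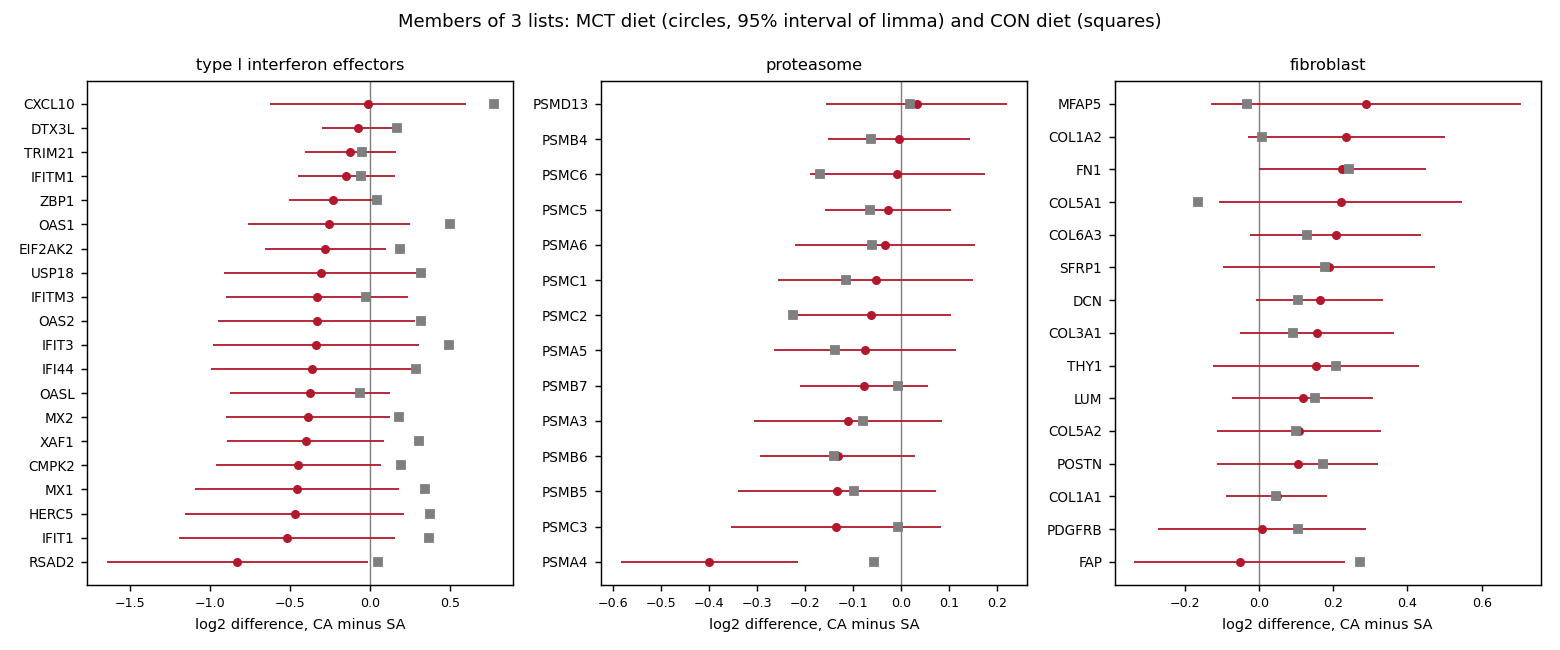
Log2 difference of CA MCT minus SA MCT with its 95% interval (circles and lines, x axis) and of CA CON minus SA CON (squares) for each measured member of 3 lists (y axis). All 20 interferon effectors, 13 of 14 proteasome subunits and 1 of 15 fibroblast genes lie below 0 on MCT.

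The lowest difference of any gene was that of CHAC1, a glutathione-degrading enzyme that the unfolded protein response induces. CHAC1 ranged from 3.98 to 5.01 (median 4.80) in CA MCT and from 4.68 to 7.56 (median 5.51) in SA MCT, a difference of -1.11 ± 0.33 or 0.46-fold with unadjusted p = 0.00273. SA MCT pig 20 lay at 7.56, far above the rest, and 4 other SA MCT piglets were also above all CA MCT piglets, leaving pig 21 inside their range. Without pig 20 the difference was -0.74. The remaining 32 genes of this response did not go one way: over all 33, 15 were higher and 18 lower, with a median of -0.0074 (-0.05 without pig 22 to 0.00067 without pig 19). DDIT3, the transcription factor CHOP that activates CHAC1, differed by -0.16 ± 0.11, EIF2AK3, the kinase PERK, by -0.12 ± 0.08, and SESN2, a stress sestrin, by -0.15 ± 0.11.

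Cytosolic chaperones and antioxidant genes were more often lower in CA MCT. Nearly all were brighter genes: 1 of 18 heat shock and 0 of 24 antioxidant genes were among the dimmest. Over the whole array 40.2% of the brighter genes were higher on MCT, and 37.4% on CON (56.6% without pig 4). Of 18 heat shock genes 15 were lower (median -0.06, -0.11 without pig 22 to -0.01 without pig 9) and of 24 antioxidant genes 19 (median -0.07, -0.11 without pig 22 to -0.05 without pig 19), 0 at an unadjusted p under 0.05. BAG3, a co-chaperone, ranged from 6.92 to 7.29 (median 7.04) in CA MCT and from 6.70 to 8.05 (median 7.42) in SA MCT (-0.35 ± 0.20), and DNAJB4, HSPB1, a small heat shock protein, and HSF1, the transcription factor of the response, differed by -0.25, -0.13 and -0.15. SRXN1, sulfiredoxin, ranged from 5.43 to 6.56 (median 5.92) in CA MCT and from 5.96 to 7.30 (median 6.55) in SA MCT (-0.59 ± 0.29, unadjusted p = 0.0519), and TALDO1 and PGD, of the pentose phosphate pathway, differed by -0.29 and -0.27, and GCLC, which starts glutathione synthesis, by -0.27. On CON, 15 of 18 and 17 of 24 genes were lower, with medians of -0.13 and -0.12 (the latter -0.05 without pig 4).

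Genes of growth were more often lower in CA MCT over the 12 piglets, as they were on CON. Most of them were brighter genes: 4 of 21 DNA replication, 1 of 34 mitosis and 0 of 32 ribosome biogenesis genes were among the dimmest. Over the whole array 40.2% of the brighter genes were higher on MCT, and 37.4% on CON (56.6% without pig 4). Of 21 DNA replication genes 18 were lower, with a median of -0.10 (-0.13 without pig 12 to -0.05 without pig 8, and -0.05 without pig 10), and on CON 20 were lower (median -0.20). Of 34 mitosis genes 25 were lower, with a median of -0.05 (-0.09 without pig 11 to 0.03 without pig 10), and on CON 30 (median -0.08). Of 32 ribosome biogenesis genes 23 were lower, with a median of -0.04 (-0.06 without pig 22 to -0.0080 without pig 24). On CON all 32 were (median -0.22), and CA CON pig 4 had the lowest mean of this list (-0.48 over 24 arrays), without which 31 were lower (median -0.16). TIPIN, which stabilises replication forks, ranged from 7.02 to 7.62 (median 7.28) in CA MCT and from 7.38 to 7.70 (median 7.55) in SA MCT (-0.25 ± 0.11, unadjusted p = 0.0357), the only gene of the 3 lists at an unadjusted p under 0.05. GINS2 and MCM4, of the replicative helicase, and POLA2, of the primase complex, differed by -0.23, -0.19 and -0.17. MAD2L1, HMMR and KIF18A, of the mitotic spindle, and CDC25C, the phosphatase that starts mitosis, differed by -0.25, -0.25, -0.14 and -0.11. The mitosis list was low in pig 10 (-0.43) and pig 8 (-0.24), between -0.06 and 0.20 in the 10 others, and 11 of 34 genes were lower without pig 10. MRTO4, BYSL, EBNA1BP2 and WDR75, ribosome assembly factors, differed by -0.14, -0.12, -0.26 and -0.09. The difference between the diets was not tested for a list, and no gene passed the interaction test.

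The study's own list of genes typical of the oxyntic mucosa held 19 genes, of which 14 were measured here, and 9 were lower and 5 higher in CA MCT (median -0.04, -0.10 without pig 22 to -0.0023 without pig 21). All 14 were brighter genes, of which 40.2% were higher over the whole array, close to the 5 of 14 here. Without pig 22, 11 of the 14 were lower. PHEROC, a subunit of pheromaxein, ranged from 6.10 to 8.80 (median 7.95) in CA MCT and from 7.70 to 9.13 (median 8.86) in SA MCT (-0.80 ± 0.44, unadjusted p = 0.0824), with its lowest value in CA MCT pig 9 (6.10). AQP4, a water channel of parietal cells, ranged from 7.65 to 8.98 (median 8.52) in CA MCT and from 8.01 to 9.77 (median 8.85) in SA MCT (-0.45 ± 0.26). KCNE2, a subunit of the potassium channel that serves the proton pump, ranged from 8.17 to 9.28 (median 8.89) in CA MCT and from 8.99 to 9.31 (median 9.07) in SA MCT (-0.23 ± 0.18). The groups overlapped in all 3. The other 11 lay between -0.17 for GHRL, the precursor of ghrelin, and 0.25 for KCNJ13, a potassium channel. PGC, a pepsinogen, was at -0.08, SLC2A4, an insulin-responsive glucose transporter, at -0.05, EGF at -0.05, LPL, lipoprotein lipase, at -0.03, IGF1 at 0.02, KCNJ15 at 0.03 and IGFBP5 at 0.05. On CON 12 of the 14 were higher in CA (median 0.15).

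By cell type, 8 of 13 parietal cell genes were lower in CA MCT (median -0.03, -0.08 without pig 22 to 0.0011 without pig 9), 5 of 6 chief cell genes (-0.05, -0.11 without pig 22 to -0.02 without pig 20) and 10 of 18 genes of endocrine cells (-0.06, -0.13 without pig 8 to 0.06 without pig 10), none at an unadjusted p under 0.05. All 13 parietal cell genes were brighter genes, of which 40.2% were higher over the whole array, close to the 5 of 13 here. CCKBR, the gastrin receptor of parietal and endocrine cells, differed by -0.23 ± 0.18, SLC26A7, an anion exchanger of parietal cells, by -0.09 ± 0.13, and MBOAT4, which acylates ghrelin, by -0.26 ± 0.18. BHLHA15, the chief cell transcription factor MIST1, differed by -0.08, AQP5, a water channel, by -0.10, INSM1, a transcription factor of endocrine cells, by -0.22, and PYY, peptide YY, by -0.14. The endocrine list was low in pig 10 (-0.51) and pig 22 (-0.34), which lie in opposite groups. Without both its median was -0.00082, and without pig 10 alone 6 of 18 genes were lower.

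The fat of the diet was the same in both groups, and genes of its use differed little. All 14 cholesterol synthesis and 28 respiratory chain genes were brighter genes, of which 40.2% were higher over the whole array. Here 6 and 12 were higher, close to that share. Of 35 genes of fatty acid oxidation and ketogenesis 20 were lower (median -0.01, -0.04 without pig 19 to 0.03 without pig 10), with DECR1, which oxidises unsaturated fatty acids, at -0.16 ± 0.08 (unadjusted p = 0.0473) and ranging from 8.68 to 8.96 (median 8.80) in CA MCT and from 8.88 to 9.22 (median 8.93) in SA MCT. PLIN2, a coat protein of lipid droplets, differed by -0.18 ± 0.10, ACSL1, which activates long chain fatty acids, by -0.09 ± 0.09, and BDH1, of ketone body metabolism, by -0.14 ± 0.15. Of 14 genes of cholesterol synthesis 8 were lower (median -0.01, -0.07 without pig 12 to 0.02 without pig 10, on CON -0.12 with 14 lower), with FDPS at -0.16, STARD4 at -0.16, HMGCS1 at -0.12 and INSIG1, a brake on the pathway, at -0.11. Of 28 genes of the respiratory chain 16 were lower, or 9 without pig 9 (median -0.0081, -0.04 without pig 12 to 0.02 without pig 9, on CON 0.11 with 27 higher), with NDUFA5 and NDUFB3 of complex I at -0.19 and -0.14, SDHD of complex II at -0.09 and ATP5H of the ATP synthase at -0.12.

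**Figure D5:**
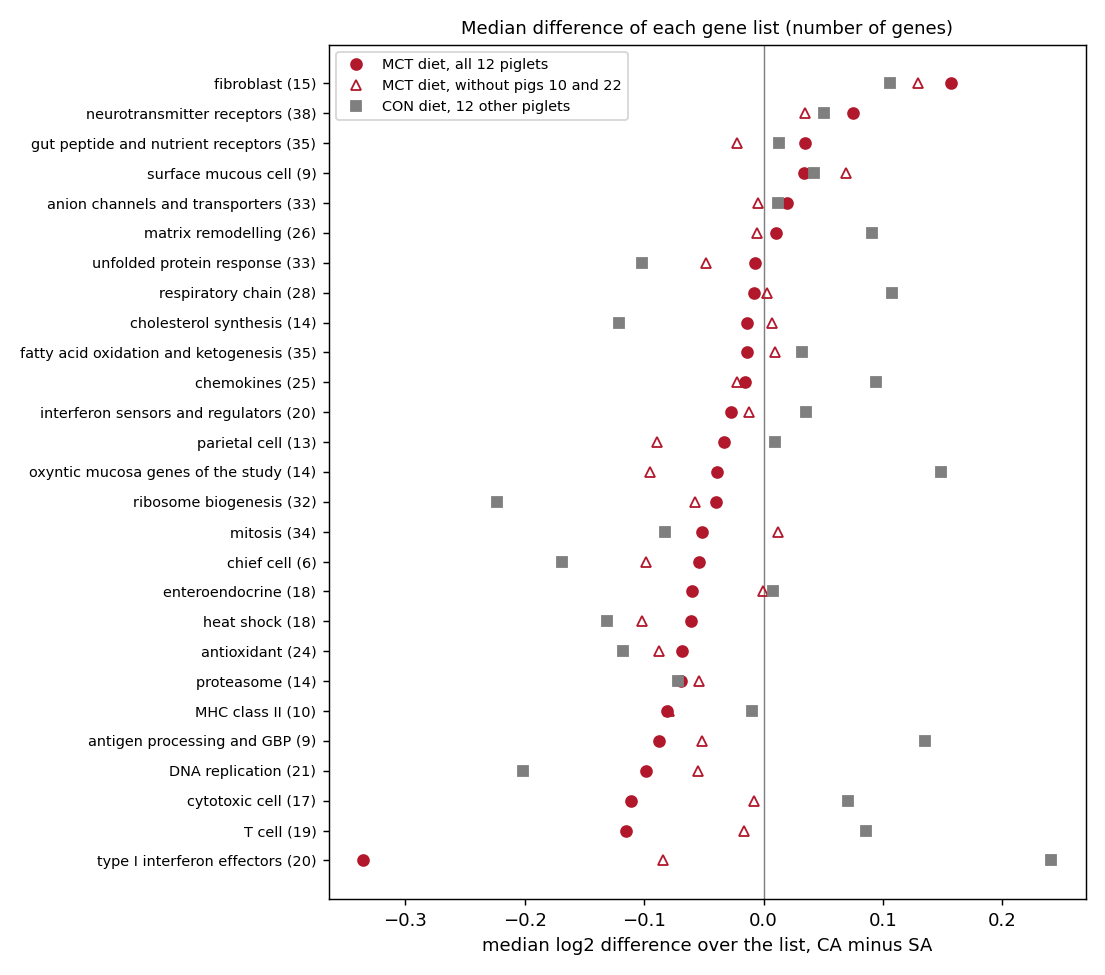
Median log2 difference of CA minus SA (x axis) over each of 27 gene lists (y axis, number of measured genes in parentheses), on the MCT diet with all 12 piglets (circles), without pigs 10 and 22 (triangles) and on CON (squares). The interferon effectors move from -0.34 to -0.08 when both piglets are left out, and the fibroblast list from 0.16 to 0.13.

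Ranked by moderated t, the 15 highest genes were BUD31, KCNN1, LOC100523684, PFDN2, TBX18, LOC100523388, ASTE1, CCDC170, SMIM10, ITGB3, LOC100153494, ANGPTL7, HSPB9, LCN10 and FCGR2B, of which 10 were among the dimmest genes and 6 were also higher on CON. BUD31, a splicing factor, ranged from 7.23 to 7.33 (median 7.29) in CA MCT and from 6.61 to 7.25 (median 6.91) in SA MCT, a difference of 0.33 ± 0.09 with unadjusted p = 0.000866. CA MCT piglets lay within a narrow band, and 1 SA MCT piglet, pig 19 (7.25), reached it. KCNN1, a calcium-activated potassium channel, ranged from 3.84 to 4.30 (median 4.19) in CA MCT and from 3.56 to 3.89 (median 3.84) in SA MCT (0.39 ± 0.10, unadjusted p = 0.000876). PFDN2, a prefoldin chaperone subunit, ranged from 6.81 to 7.07 (median 6.87) in CA MCT and from 6.55 to 6.85 (median 6.66) in SA MCT (0.24 ± 0.07). In KCNN1 and PFDN2 the CA MCT median was above every SA MCT value. ITGB3, an integrin of platelets and other cells, ranged from 6.25 to 6.57 (median 6.30) in CA MCT and from 5.91 to 6.32 (median 5.97) in SA MCT (0.34 ± 0.11), with a like value of 0.32 on CON. FCGR2B, an inhibitory receptor for immunoglobulin G, ranged from 4.55 to 5.25 (median 4.85) in CA MCT and from 4.16 to 4.84 (median 4.57) in SA MCT (0.33 ± 0.11).

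The 15 lowest by moderated t were PSMA4, CCDC13, ACVR1C, TMEM104, CHIC1, CHAC1, KCTD6, CLEC2B, FLT3LG, TRAPPC13, VMA21, CPSF6, PSPH, DHRS9 and LOC100155688, of which 4 were among the dimmest genes and 9 were also lower on CON. ACVR1C, the activin receptor ALK7, ranged from 2.93 to 3.35 (median 3.07) in CA MCT and from 3.23 to 3.75 (median 3.50) in SA MCT (-0.40 ± 0.10, unadjusted p = 0.000528). FLT3LG, the growth factor of dendritic cell precursors, ranged from 5.18 to 5.79 (median 5.49) in CA MCT and from 5.74 to 6.09 (median 5.84) in SA MCT (-0.39 ± 0.12, unadjusted p = 0.00393), with 5 of 6 SA MCT piglets above all CA MCT piglets. DHRS9, a retinol dehydrogenase, ranged from 4.24 to 4.90 (median 4.56) in CA MCT and from 4.54 to 5.20 (median 5.01) in SA MCT (-0.42 ± 0.14). PSPH, the last enzyme of serine synthesis, ranged from 3.83 to 4.26 (median 3.93) in CA MCT and from 3.96 to 4.56 (median 4.33) in SA MCT (-0.33 ± 0.11). In ACVR1C, DHRS9 and PSPH the SA MCT median was above every CA MCT value. TMEM104 ranged from 6.58 to 7.03 (median 6.82) in CA MCT and from 6.79 to 7.32 (median 7.24) in SA MCT (-0.40 ± 0.11), and pig 22, at 6.79, was its lowest SA MCT value as for PSMA4.

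In 21 genes (0.193%) the 6 CA MCT values did not overlap with the 6 SA MCT values. Random labels on 6 and 6 piglets would by themselves separate about this share of genes. The count was not tested, and single genes are given as a description. 8 were higher in CA MCT (0.0735% of genes): TBX18, SMIM10, LOC100153494, ODF3, HELZ2, NKX2-1, DDX23 and CORO2A. 13 were lower (0.119%): CCDC13, CHIC1, KCTD6, VMA21, LOC100155688, MOCS2, CHMP2B, ADAM15, NANP, CCDC150, TFAM, SMG5 and SPAST. Among the dimmest genes were TBX18, SMIM10, LOC100153494, ODF3, HELZ2 and NKX2-1 of the higher ones, and CCDC13 and LOC100155688 of the lower. TBX18, a T-box transcription factor of mesenchyme, ranged from 3.50 to 3.88 (median 3.67) in CA MCT and from 2.95 to 3.49 (median 3.23) in SA MCT (0.43 ± 0.13). CHMP2B, a subunit of the ESCRT-III membrane scission complex, ranged from 7.91 to 8.30 (median 8.20) in CA MCT and from 8.32 to 8.52 (median 8.40) in SA MCT (-0.26 ± 0.10). TFAM, which packs and transcribes mitochondrial DNA, ranged from 6.95 to 7.15 (median 7.04) in CA MCT and from 7.15 to 7.26 (median 7.24) in SA MCT (-0.17 ± 0.07), so that its groups were apart only in the further decimals. HELZ2, a helicase that interferon induces, ranged from 2.90 to 3.11 (median 2.95) in CA MCT and from 2.62 to 2.89 (median 2.79) in SA MCT (0.21 ± 0.08). Its sign was opposite to that of the interferon effectors, but at low signal (mean log2 intensity 2.86). Of the dimmest genes 59.9% were higher. ADAM15, a membrane metalloprotease, ranged from 6.53 to 6.87 (median 6.65) in CA MCT and from 6.91 to 7.03 (median 6.94) in SA MCT (-0.27 ± 0.14). CHMP2B, TFAM, HELZ2, ADAM15 and SPAST were named for their lack of overlap, after their values were seen. None of the 21 belongs to a list described above, and the smallest difference among them was that of SPAST, a microtubule-severing enzyme, at -0.07.

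The difference between CA and SA was not shown to depend on the diet in any gene. In the test of the interaction, the difference on MCT minus that on CON, 0 of 10882 genes passed (0%), with a lowest adjusted p of 0.9999, and 275 were at an unadjusted p under 0.05 (2.53%), 139 higher and 136 lower. On CON alone 0 genes passed (lowest adjusted p 0.734) and 463 were at an unadjusted p under 0.05. Without CA CON pig 4, 0 genes passed either test (lowest adjusted p 0.997 for the interaction and 0.999 on CON, with 408 and 478 genes at an unadjusted p under 0.05). UPK2, a uroplakin, had the highest interaction t (0.49 ± 0.14, 0.24 on MCT and -0.25 on CON), followed by FMO1, a flavin monooxygenase (0.73 ± 0.22, 0.37 and -0.36), CCDC170, ANGPTL7 and LOC100523684. VMA21, an assembly factor of the vacuolar proton pump, had the lowest (-0.46 ± 0.12, -0.26 on MCT and 0.20 on CON), followed by FOXL1, a transcription factor of subepithelial fibroblasts (-0.41 ± 0.12, -0.20 and 0.21), ATP6V1C2, a subunit of that pump (-0.50 ± 0.15, -0.25 and 0.25), STPG2 and FLT3LG. CCL2 (-0.64 ± 0.29) and CXCL11 (-0.72 ± 0.32) were at unadjusted interaction p of 0.0356 and 0.0349, or 0.0300 and 0.0569 without pig 4.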

How the data were processed

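Oxyntic mucosa of 24 piglets was hybridised to 1 array each, and groups were taken from the sample titles. The authors deposited intensities of 27558 transcript clusters on a linear scale, background-corrected, normalized and summarised by RMA, and log2 of them was taken here. Of the clusters, 11939 had 1 gene symbol in the platform annotation, 416 several and 15203 none. For 958 symbols with more than 1 cluster the brightest over 24 arrays was kept, giving 10882 genes. Group means were fitted with limma 3.58.1 in R 4.3.3 over 24 arrays (20 residual degrees of freedom), moderated by eBayes and adjusted by Benjamini-Hochberg over all genes. Gene p-values are limma's, unadjusted where not said otherwise, and two-sided. The fit was tested on simulated data. Room, litter and sex could not be modelled, and arrays carry no depth: their number limits the precision.

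The genes named are the 15 highest and lowest by moderated t, up to 4 leading members of each list described, genes the study names for CA against SA, and the 5 highest and lowest interactions. Others were named after their values were seen, where stated. SLC4A2, CLIC6, TFF1, PGB and CHIA of the study's genes are not analysed here. The lists and the comparison were chosen with earlier results of these data known. The genes the study names outside its oxyntic list were picked on these piglets, so that neither is independent evidence. The study drew its oxyntic list from earlier comparisons of the stomach with the intestine and of oxyntic with pyloric mucosa. Alternatives were 12-array and weighted fits, the mean of clusters, a filter on dim genes, quantile normalization, an intensity trend, all clusters, and leaving out each MCT piglet, pigs 10 and 22 together, or CA CON pig 4. Sequences were not used here. The labels and the methods name different RNA kits.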

Additional observations from a re-analysis of the deposited data

Results flagged for a closer look

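In 28 of 400 groups of 6 values, those of the named genes and lists, the highest or lowest piglet was set apart from the others by more of the range of its group than Dixon's 95% critical value allows (7%, where chance gives about 5%). Pigs 10 and 22, whose arrays stood apart, accounted for 8 and 8, and for each gene the share of the range is given first, then the log2 value of the piglet against that of the nearest one.

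CA MCT pig 10 was the low piglet in DHX58 (0.720, at 3.54 against 4.45), HSF1 (0.743, at 5.51 against 6.06), INSM1 (0.746, at 3.55 against 4.45), PGA5 (0.659, at 11.93 against 12.03), PSMB5 (0.856, at 7.26 against 7.75) and VMA21 (0.661, at 4.83 against 5.08). It was the high piglet in CCDC170 (0.700, at 4.04 against 3.49) and FN1 (0.643, at 11.05 against 10.62).

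SA MCT pig 22 was the low piglet in PLIN2 (0.736, at 6.39 against 6.70), PSMA4 (0.655, at 8.19 against 8.55), SDHD (0.680, at 9.75 against 10.01) and TMEM104 (0.770, at 6.79 against 7.20). It was the high piglet in LOC100155688 (0.661, at 3.18 against 2.83) and XAF1 (0.644, at 7.09 against 5.55). PSMA4 and TMEM104, lower in CA MCT on average, were both lowest in this piglet among the SA MCT group.

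The other piglets set apart were CA MCT pig 8 for STPG2 (0.698, at 3.16 against 3.04), high, pig 9 for ATP5H (0.685, at 7.94 against 8.49), low, and for ZBP1 (0.675, at 4.17 against 3.79), high, and pig 12 for CLCA1 (0.640, at 6.00 against 7.45), low, and for PSMB6 (0.746, at 9.40 against 9.15), high. In SA MCT, pig 20 was low for CCL28 (0.735, at 6.76 against 7.56), and pig 21 was high for ATP4A (0.658, at 11.92 against 11.83) and BDH1 (0.729, at 9.04 against 8.67) and low for DCN (0.776, at 10.49 against 10.55) and VSIG4 (0.633, at 6.08 against 6.23).

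Of the list means, each centred on the 12 arrays, that of the surface mucous cell genes stood out in pig 22 (0.656 of the range, at 0.33 against -0.05), that of the neurotransmitter receptor genes stood out in pig 11 (0.662 of the range, at 0.10 against 0.04), that of the neurotransmitter receptor genes stood out in pig 22 (0.646 of the range, at -0.14 against -0.04), that of the proteasome genes stood out in pig 12 (0.647 of the range, at 0.10 against -0.03).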

How the results depend on the processing

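No gene was called between CA MCT and SA MCT except PSMA4, called with array weights and without SA MCT pig 22 (0 to 1 genes over the 12 fits that left out 1 piglet), and its adjusted p was between 0.0243 and 1.00 over the 21 alternatives. The lowest adjusted p of any gene was 0.937 without CA CON pig 4 and 0.820 without the dimmest 40% of genes. Genes whose groups did not overlap numbered 21, against 13 without the dimmest 40%, 55 over all 27558 transcript clusters, 33 to 83 when 1 piglet was left out (83 without SA MCT pig 22) and 111 without pigs 10 and 22, where fewer piglets make an overlap less likely. No interaction was called under any alternative run (unadjusted 275). Of 173 genes named, 15 had the opposite sign under some alternative, and the difference was smaller than its SE in all but SDHD. With 1 piglet left out these spanned -0.027 to 0.0042 for ATP4A, -0.028 to 0.044 for ATP4B, -0.28 to 0.015 for BHLHA15, -0.17 to 0.13 for CXCL10, -0.19 to 0.068 for CXCL11, -0.48 to 0.014 for DHX58, -0.19 to 0.071 for EGF, -0.063 to 0.10 for IGF1, -0.0035 to 0.38 for KCNJ13, -0.0065 to 0.067 for KCNJ15, -0.090 to 0.075 for LPL, -0.38 to 0.016 for MUC13, -0.31 to 0.034 for PYY and -0.16 to 0.061 for SLC2A4. With array weights CXCL11 was at 0.21 and DHX58 at 0.062, without pigs 10 and 22 at 0.18 and 0.21, with repeated quantile normalization ATP4B was at -0.0085 and CXCL10 at 0.011, and with the mean of its clusters SDHD was at 0.040. Of the 27 list medians 15 kept their sign under every alternative, among them the interferon effectors (-0.49 to -0.08), the fibroblast genes (0.12 to 0.17) and the proteasome (-0.09 to -0.04). The median of the neurotransmitter receptors was -0.04 without the dimmest 40%, and that of the cytotoxic genes -0.0081 without pigs 10 and 22. The causes were not tested. No paired analysis was possible because the piglets of the compared groups share no numbers, and the search for an interferon response element in promoters was not run because no promoter table was used here. Low signal limits the dimmest genes, RSAD2, CHRNA2 and MMP7 among them.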

Other observations

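Of the 30 genes that differed by more than 0.5 in size on the log2 scale, 4 more are named here after their values were seen. ZFAND2A, an arsenite-inducible partner of the proteasome, ranged from 5.10 to 6.33 (median 5.51) in CA MCT and from 5.30 to 7.56 (median 6.40) in SA MCT, the second lowest difference of any gene (-0.85 ± 0.45, unadjusted p = 0.0736), and was at -0.56 on CON (-0.91 without pig 4). NPW, the precursor of neuropeptide W, ranged from 4.30 to 5.73 (median 4.62) in CA MCT and from 4.23 to 6.20 (median 5.86) in SA MCT (-0.82 ± 0.38, unadjusted p = 0.0405). TAAR1, a receptor of trace amines, ranged from 4.56 to 6.46 (median 5.19) in CA MCT and from 5.65 to 6.86 (median 6.05) in SA MCT (-0.76 ± 0.36, unadjusted p = 0.0483) and was at 0.60 on CON. SELENBP1, a selenium-binding methanethiol oxidase, ranged from 7.46 to 8.96 (median 8.44) in CA MCT and from 8.66 to 9.11 (median 8.95) in SA MCT (-0.52 ± 0.20, unadjusted p = 0.0156). The groups overlapped in these genes and none passed after adjustment.

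Lists of other cell types and processes had small medians. VSIG4, PROX1 and IL33 were each the only member of their list at an unadjusted p under 0.05. They were picked after their values were seen, and other lists also had 1 such member each. In the B cell, ER to Golgi transport and epithelial antimicrobial defence lists it was lower in CA MCT. In the pancreas, xenobiotic response and cytosolic ribosomal protein lists it was higher. VSIG4, a complement receptor of resident macrophages, ranged from 6.26 to 6.77 (median 6.54) in CA MCT and from 6.08 to 6.31 (median 6.25) in SA MCT (0.29 ± 0.12, unadjusted p = 0.0211), and was the only one of 21 myeloid genes at an unadjusted p under 0.05 (median -0.04, 9 higher). PROX1, the transcription factor of lymphatic vessels, ranged from 4.41 to 5.07 (median 4.67) in CA MCT and from 4.87 to 5.36 (median 5.00) in SA MCT (-0.37 ± 0.14, unadjusted p = 0.0142), while 6 of 10 endothelial genes were higher (median 0.07, -0.0026 without pig 22). IL33, an alarmin of epithelial and stromal cells, ranged from 5.00 to 5.32 (median 5.19) in CA MCT and from 5.23 to 5.67 (median 5.40) in SA MCT (-0.25 ± 0.10, unadjusted p = 0.0194), in a list of 33 interleukins and TNF family genes with 18 lower (median -0.01, 0.0050 without pig 22). Of 18 Toll-like receptor and inflammasome genes 13 were lower (median -0.05, -0.02 without pig 22), and of 35 cytosolic ribosomal proteins 25 were higher (median 0.04, -0.0070 without pig 10).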
